A study of Homo sapiens with 7 samples.

Results

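The 10 genes described here are EEF1A2, SERINC2, HHIP, LRRC17, ATP9A, PIK3CG, SIRPA, CSPG4, TNFRSF21 and AJAP1. These genes each had a probe detected in HT1080 fibrosarcoma cells and fell strongly in some lines made from those cells with PTK7 constructs. They were selected on the measured values themselves, as genes detected on the HT1080 array with a strong fall in 1 to 3 lines, so every fall below is a description of why a gene is here and carries no test. They are 10 of 20045 genes with a probe, and 19 of the 47230 probes on the array belong to them. RNA was profiled on Illumina HumanHT-12 v4 BeadChips, which read each transcript with oligonucleotide probes, after 72 h of growth. One array was made per line, 7 arrays in all, so no spread between replicates can be given and no test across samples is possible.

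All 7 cultures were HT1080 cells, a human fibrosarcoma line, and PTK7 is a pseudokinase of the cell membrane. In shPTK7 cells a short hairpin RNA targeted PTK7. This line combined 3 clones picked by immunoblot after sorting for a red fluorescent marker and growth in puromycin. PTK7 cells expressed the full-length membrane protein, and Chz cells the Chuzhoi mutant, which has an additional cleavage site for the protease MT1-MMP. sPTK7 cells expressed the soluble ectodomain, and the C-terminal fragments in cPTK7/622-1070 and in cPTK7/726-1070 cells are named by their first and last residue. PTK7 and sPTK7 carried a FLAG tag and the C-terminal fragments a V5-HIS tag. The HT1080 array is labelled as a scrambled control in the deposited records, whereas the study's text compares with parental cells. Selection with G418 was described for the cPTK7/622-1070 line, and whether the other construct lines were clones or pools is not given in the sources used here. A fall that is particular to a clone and a fall that is particular to a construct therefore cannot be told apart with 1 culture per line. Each array also averages a whole culture, so a loss in a share of the cells and less RNA in every cell cannot be told apart either.

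Between 19045 and 20515 probes per array had a detection p under 0.05, a p that compares a probe with the negative controls of its array. The lowest detected signal lay between 191.9 and 203.1 on the 7 arrays, and signals below it count as not detected. PTK7 itself had 2 probes. The one that represents the gene read 135.2 in shPTK7 cells (not detected) and 246.5 in PTK7 cells, against 246.1 in HT1080 cells. It was also detected in Chz cells (296.5) and not detected in sPTK7 (140.5), cPTK7/622-1070 (173.1) and cPTK7/726-1070 cells (149.4). The other PTK7 probe was detected only in Chz (210.5) and HT1080 cells (196.4). At the representing probe the low value in shPTK7 cells was therefore shared with 3 other lines, and the full-length construct gave no rise. The position of the probe in the transcript was not analysed here, nor whether it reads the constructs. By immunoblot the study reports efficient PTK7 silencing in shPTK7 cells and similar protein levels for the Chz, PTK7 and sPTK7 constructs. Of 8 mesenchymal marker genes, 7 or 8 were detected on every array, among them VIM, which encodes vimentin. Of 7 epithelial markers CDH1, KRT19, CLDN7 and ESRP1 were detected nowhere and 1 or 2 were detected on each array, and of 5 skeletal muscle markers none was detected.

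The genes belong to no single pathway. HHIP and LRRC17 encode secreted or surface proteins that bind other factors. SIRPA and TNFRSF21 are receptors, and CSPG4 and AJAP1 are membrane proteins of cell adhesion. SERINC2 and ATP9A are membrane proteins linked to lipids, and PIK3CG and EEF1A2 work inside the cell. What they have in common is the choice made on their levels, so the text takes them one by one and then asks which of them moved together.

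The regions around the transcription starts of 3 members are shown because they span most of the range found in the group, from a start dense in CG dinucleotides to one with few. The sequences are from RefSeq (GRCh38.p14), run 5′ to 3′ on the strand of the gene and cover 300 bases around the start, with each CG in capitals.
ATP9A, chr20:51768341-51768640, minus strand: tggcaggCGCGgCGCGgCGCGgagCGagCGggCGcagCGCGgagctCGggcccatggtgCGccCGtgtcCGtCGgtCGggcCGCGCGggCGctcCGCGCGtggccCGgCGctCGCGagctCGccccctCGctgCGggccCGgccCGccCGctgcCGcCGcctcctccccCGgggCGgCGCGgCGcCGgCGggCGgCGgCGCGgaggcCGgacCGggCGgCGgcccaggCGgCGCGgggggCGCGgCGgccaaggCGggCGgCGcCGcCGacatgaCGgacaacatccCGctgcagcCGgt
HHIP, chr4:144645906-144646205, plus strand: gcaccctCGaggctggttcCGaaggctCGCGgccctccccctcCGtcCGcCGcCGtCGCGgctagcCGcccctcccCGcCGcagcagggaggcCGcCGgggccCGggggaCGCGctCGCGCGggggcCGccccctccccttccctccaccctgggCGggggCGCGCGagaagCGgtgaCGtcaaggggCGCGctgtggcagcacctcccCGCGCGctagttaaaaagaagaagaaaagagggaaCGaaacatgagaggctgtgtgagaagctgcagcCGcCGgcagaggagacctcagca
LRRC17, chr7:102912750-102913049, plus strand: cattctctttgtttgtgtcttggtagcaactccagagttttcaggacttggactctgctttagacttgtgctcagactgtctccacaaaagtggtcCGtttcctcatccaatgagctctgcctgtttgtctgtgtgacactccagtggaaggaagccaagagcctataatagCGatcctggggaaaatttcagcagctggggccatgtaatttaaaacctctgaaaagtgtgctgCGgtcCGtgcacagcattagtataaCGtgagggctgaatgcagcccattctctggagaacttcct
The ATP9A window held 65 CG dinucleotides, a number reached by 0.0313% of 35116 promoters of this length, the HHIP window 36 (12.7%) and the LRRC17 window 5 (70.4%), where the median promoter held 14. Of the 10 genes, 8 were in the table, with 11 windows in all. AJAP1 had 40, TNFRSF21 23, CSPG4 19 and PIK3CG 8, and the 4 windows of SERINC2 held 1 to 42. The sequence TATAAA, searched on both strands, was in 0 of the 11 windows and in 11.5% of all promoters. HHIP and LRRC17 were both lowest in PTK7 cells. A relation between the number of CG dinucleotides and the falls was not tested.

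**Figure D1:**
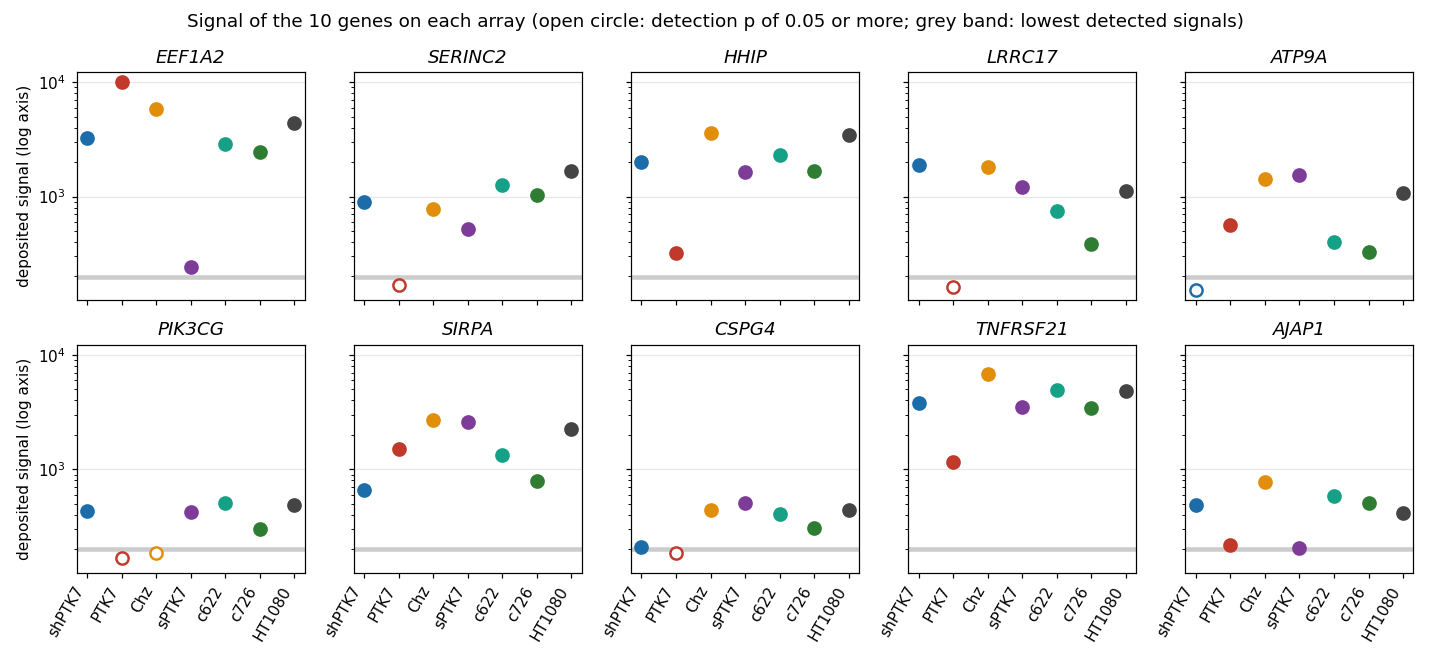
Deposited signal (log axis) of the probe that represents each of the 10 genes on each of the 7 arrays, with c622 for cPTK7/622-1070 and c726 for cPTK7/726-1070 cells. Open circles are not detected and the grey band spans the lowest detected signals, 191.9 to 203.1. Of the genes, 5 drop into or below the band on at least 1 array without being detected, while TNFRSF21 stays at 1162 or more throughout.

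Calls of lower or higher required a difference of 2-fold or more to HT1080 cells after background correction and quantile normalization, provided that the brighter of the arrays had a detection p under 0.05. Undetected signals were raised to the lowest detected level of their array, so a fold with an undetected array is written "at least". This bound holds only on the background-corrected scale and with detection set at a p under 0.05. The deposited signals, which include the background, differ less, and their ratio is given beside the bounds of the probes that represent the members. Bounds of further member probes are given without it. Of the 60 comparisons of 10 genes in 6 lines, 20 were called lower, 1 was called higher and 39 were not called. The rule used these same contrasts, so the background that follows is given for the scale only. In PTK7 cells 7 members were lower, where 3.98% of all genes tested were lower and 2.79% higher. In shPTK7 cells 4 were lower (1.76% of all genes, with 1.32% higher), in sPTK7 cells 3 (2.08%, with 2.08% higher) and in cPTK7/726-1070 cells 3 (1.76%, with 1.7% higher). In Chz cells 2 were lower (1.97%, with 2.26% higher) and in cPTK7/622-1070 cells 1 (0.85%, with 0.783% higher). The median log2 fold of the 10 genes was -2.17 in PTK7 cells, -0.77 in cPTK7/726-1070 cells, -0.74 in shPTK7 cells, -0.59 in cPTK7/622-1070 cells, -0.23 in sPTK7 cells and 0.18 in Chz cells, against medians between -0.014 and 0.014 over all genes tested.

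"Silenced in single lines" describes only some of the members. Of the 10, 3 were called lower in 1 line, 5 in 2 lines, 1 in 3 lines and 1, SERINC2, in 4 lines, which is outside the stated 1 to 3. In their lowest line 5 members were not detected, namely SERINC2, LRRC17, ATP9A, PIK3CG and CSPG4, and 5 were still detected, namely EEF1A2, HHIP, SIRPA, TNFRSF21 and AJAP1. The rule names no numerical threshold. At the 2-fold limit used here the calls just inside were SERINC2 in shPTK7 cells (2.14-fold lower) and SIRPA in cPTK7/726-1070 cells (2.72-fold), and just outside lay ATP9A in PTK7 cells (1.99-fold lower) and HHIP in sPTK7 cells (1.95-fold). The genes are a small part of a wider set, since 903 of 11387 genes detected in HT1080 cells (7.93%) were lower in 1 to 3 lines, 643 of them in 1 line, and 208 of the 903 were not detected in at least 1 of those lines.

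**Figure D2:**
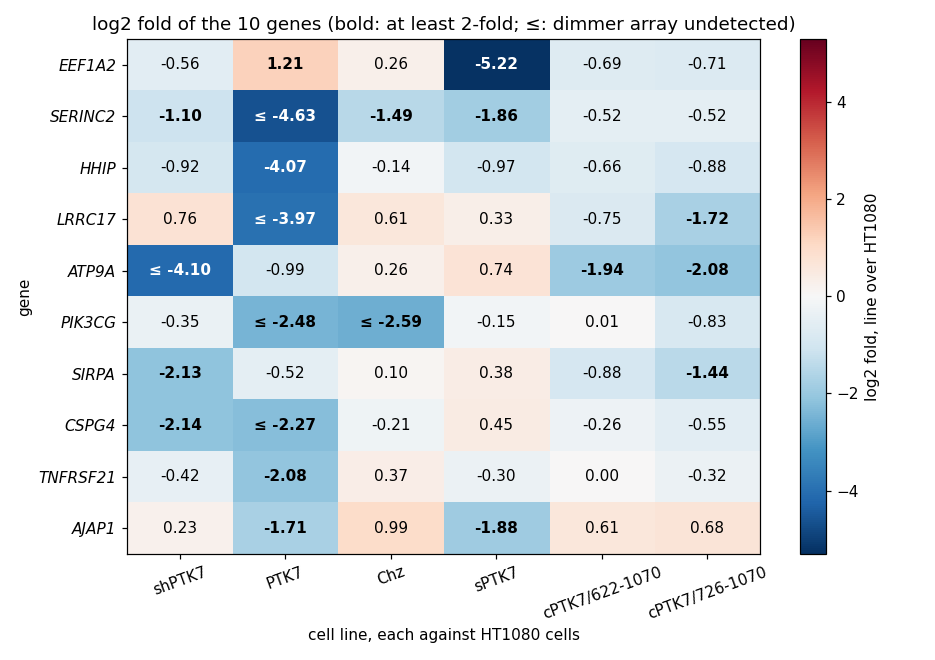
log2 fold of each of the 10 genes (rows) in each of the 6 lines (columns) over HT1080 cells, from the representing probe. Bold values are called, and a value after ≤ is a bound because the dimmer array was not detected. The column of PTK7 cells holds 7 of the 20 values called lower and the only value called higher, 1.21 for EEF1A2, and the lowest value of all is -5.22 for EEF1A2 in sPTK7 cells.

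HHIP encodes hedgehog-interacting protein, which binds hedgehog ligands at the cell surface and lowers signaling through their receptor. The probe that represents it read 318.5 in PTK7 cells, 2019 in shPTK7 cells, 3564 in Chz cells, 1652 in sPTK7 cells, 2303 in cPTK7/622-1070 cells and 1678 in cPTK7/726-1070 cells, against 3452 in HT1080 cells. PTK7 cells stood well below the other 6 arrays, which lay within a narrower range. The fall was 16.8-fold, the 4th largest of the 477 lower calls in that line, and the gene was still detected. No other line was called, with folds of 1.95 lower in sPTK7, 1.90 lower in shPTK7 and 1.85 lower in cPTK7/726-1070 cells. The value in sPTK7 cells passed 2-fold with scaling to the 75th percentile and without normalization between arrays, and that in cPTK7/726-1070 cells without normalization. A second HHIP probe was detected only in Chz cells (223.4) and in cPTK7/726-1070 cells (198.6), so it gives no check of the fall.

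No other hedgehog gene tested was called in PTK7 cells. Of 18 listed genes, among them receptors, regulators and GLI transcription factors, 16 had a probe and 7 were tested, that is, detected in the line or in HT1080 cells. In PTK7 cells none of the 7 was lower or higher and their median log2 fold was 0.32. With 3.98% of all genes tested lower in these cells and 2.79% higher, a count of 0 among 7 is near the background. The tested genes were SMO, GLI2, GLI3, GAS1, DISP1, HHAT and STK36, so the ligands and the receptor PTCH1 were not among them. SMO, the signal transducer of the pathway, read 561.7 in PTK7 cells, against 415.7 in HT1080 cells.

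LRRC17 encodes a secreted protein with leucine-rich repeats that is known to restrain osteoclast formation. Its representing probe read 162.0 in PTK7 cells (not detected), 382.5 in cPTK7/726-1070 cells, 741.6 in cPTK7/622-1070 cells, 1217 in sPTK7 cells, 1825 in Chz cells and 1889 in shPTK7 cells, against 1109 in HT1080 cells. The levels thus ran on both sides of the control. The corrected fall was at least 15.7-fold in PTK7 cells (6.84-fold in deposited signal) and 3.30-fold in cPTK7/726-1070 cells, while shPTK7 cells were 1.70-fold higher, short of a call. In PTK7 cells the log2 fold was -2.45 without background correction and -3.49 with a detection p under 0.01. A second LRRC17 probe fell in the same lines, to 146.5 in PTK7 cells (at least 5.01-fold) and 255.6 in cPTK7/726-1070 cells (2.24-fold), against 448.5 in HT1080 cells. The third LRRC17 probe was detected on no array.

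Among 6 genes of osteoclast signaling, TNFRSF11B, which encodes the decoy receptor osteoprotegerin, was lower in all 6 lines. It read 136.4 in PTK7 cells (at least 3.17-fold lower) and 128.0 in cPTK7/726-1070 cells (at least 3.20-fold), against 334.2 in HT1080 cells, and was detected in Chz cells alone among the lines (235.4, 2.18-fold lower). Its fall was therefore not limited to the lines in which LRRC17 fell. Of the 6 genes only 3 were tested in PTK7 cells (TNFRSF11B, CSF1R and TRAF6) and 4 in cPTK7/726-1070 cells. None of the tested genes was higher in PTK7 or cPTK7/726-1070 cells. In these lines 3.98% and 1.76% of all genes tested were lower and 2.79% and 1.7% higher.

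SIRPA encodes an inhibitory receptor, best known on macrophages, whose ligand is CD47. The representing probe read 655.1 in shPTK7 cells, 796.3 in cPTK7/726-1070 cells, 1341 in cPTK7/622-1070 cells, 1502 in PTK7 cells, 2573 in sPTK7 cells and 2723 in Chz cells, against 2245 in HT1080 cells. The 2 lowest arrays were shPTK7 and cPTK7/726-1070, which were 4.39-fold and 2.72-fold lower, and SIRPA was detected everywhere with this probe. The call in cPTK7/726-1070 cells was lost with the median of the 7 arrays as reference. A second SIRPA probe read 141.8 in shPTK7 cells (not detected, at least 3.14-fold lower) and 201.5 in cPTK7/726-1070 cells (2.39-fold lower), against 310.7 in HT1080 cells. Both probes placed the same 2 lines past 2-fold and no other. The SIRP genes are close in sequence, and whether either probe also reads a relative was not tested.

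CD47 was called in no line. It read 1210 in shPTK7 cells and 1296 in cPTK7/726-1070 cells, against 1284 in HT1080 cells. Of 11 listed genes of the SIRP family, its ligands and its effectors, 5 were tested in each of these lines. None was called in shPTK7 cells, and THBS1, a matrix glycoprotein that binds CD47, was the single lower call in cPTK7/726-1070 cells (371.2 against 3703 in HT1080 cells, 12.8-fold). THBS1 was not called in shPTK7 cells. In shPTK7 and in cPTK7/726-1070 cells 1.76% of all genes tested were lower. Where SIRPA was not called, THBS1 was lower in PTK7 (2.47-fold) and cPTK7/622-1070 cells (2.70-fold) and higher in Chz (4.13-fold) and sPTK7 cells (2.75-fold). Of 7 leukocyte markers with a probe, PTPRC, CD3E, LCP2 and CD53 were detected on no array. CD14, ITGAM and CORO1A were each detected on at least 1 array, and every array had 2 detected markers. The summed signal of the 7 markers lay between 1152 and 1423 in the lines, against 1356 in HT1080 cells.

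TNFRSF21 encodes death receptor 6, a member of the tumor necrosis factor receptor family with a death domain. It read 1162 in PTK7 cells, 3437 in cPTK7/726-1070 cells, 3519 in sPTK7 cells, 3799 in shPTK7 cells, 4886 in cPTK7/622-1070 cells and 6795 in Chz cells, against 4805 in HT1080 cells. PTK7 cells were 4.22-fold lower and no other line was called. With a signal of 1162 the gene was lowered rather than silenced. Of 14 listed death receptors and adaptors, 10 were tested in PTK7 cells, where TNFRSF10B, which encodes a receptor for the ligand TRAIL, was lower (3714 against 7920 in HT1080 cells, 2.04-fold) and none was higher. The list had a median log2 fold of -0.21 in these cells, where 3.98% of all genes tested were lower and 2.79% higher.

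CSPG4 encodes a large chondroitin sulfate proteoglycan of the cell surface, also named NG2, that binds collagen VI. Its only probe read 184.6 in PTK7 cells (not detected), 210.9 in shPTK7 cells, 309.6 in cPTK7/726-1070 cells, 403.7 in cPTK7/622-1070 cells, 437.6 in Chz cells and 508.4 in sPTK7 cells, against 436.6 in HT1080 cells. Both low arrays stood near the limit of detection, and the corrected falls were at least 4.82-fold in PTK7 cells (2.37-fold in deposited signal) and 4.40-fold in shPTK7 cells. CSPG4 was thus lower both with the hairpin against PTK7 and with the full-length construct. The gene was dim also in HT1080 cells, and without background correction the log2 fold in PTK7 cells was -1.12 instead of -2.27, and with a detection p under 0.01 it was -1.79.

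Of 16 listed partners of CSPG4, 13 were tested. In PTK7 cells, where 3.98% of all genes were lower, 3 of the 13 were lower and none higher, COL6A3 (1391 against 10140 in HT1080 cells, 7.33-fold), PLAT, the tissue plasminogen activator gene (249.7 against 738.2, 5.11-fold), and COL6A2 (188.8 against 395.4, at least 4.15-fold after correction). In shPTK7 cells COL6A2 (2.29-fold) and PLAT (2.11-fold) were lower and none was higher, where 1.76% of all genes were lower. COL6A2 was also lower in cPTK7/622-1070 cells (2.02-fold), where CSPG4 was not called. The median log2 fold of the partners was -0.53 in PTK7 cells and -0.50 in shPTK7 cells. Among 20 genes that build chondroitin sulfate chains, 16 were tested in PTK7 cells and 18 in shPTK7 cells. The sulfotransferase gene CHST15 was lower in PTK7 cells (141.3 against 625.2 in HT1080 cells, at least 7.93-fold after correction) and in shPTK7 cells (2.78-fold), and UST was lower in PTK7 cells (2.06-fold) and in shPTK7 cells (3.93-fold), with CHST14 also lower in PTK7 cells (2.32-fold). CHST15 was lower also in sPTK7 cells (at least 8.12-fold) and in Chz cells (3.44-fold), where CSPG4 was not called.

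AJAP1 encodes a transmembrane protein of adherens junctions that is known to bind basigin. Its 3 probes were detected in HT1080 cells. The representing probe read 206.8 in sPTK7 cells, 219.9 in PTK7 cells, 483.0 in shPTK7 cells, 504.0 in cPTK7/726-1070 cells, 585.0 in cPTK7/622-1070 cells and 773.5 in Chz cells, against 413.4 in HT1080 cells. sPTK7 and PTK7 cells were the low arrays, 3.68-fold and 3.28-fold lower, and every other line was above the control. Both low signals lay near the limit of detection (detection p 0.0156 and 0.0117). In sPTK7 cells the log2 fold was -1.88, but -1.19 without background correction and -1.71 with a detection p under 0.01. The second probe was not detected in sPTK7 or PTK7 cells. It read 131.8 in sPTK7 cells (at least 5.23-fold lower) and 138.0 in PTK7 cells (at least 5.11-fold lower), against 455.4 in HT1080 cells. The third probe read 168.2 in sPTK7 cells and 152.5 in PTK7 cells, neither detected, against 298.2 in HT1080 cells. Unlike the representing probe, it was also below the control in shPTK7 cells (254.2), short of a call.

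The probes differed on the rise of AJAP1. In Chz cells the representing probe was 1.98-fold higher, short of a call, while the second probe (1029) was 2.43-fold and the third (579.9) 2.41-fold higher. In cPTK7/726-1070 cells the second probe was 2.32-fold and the third 2.11-fold higher, against 1.61-fold for the representing probe. All 3 probes ranked Chz cells highest and the sPTK7 and PTK7 arrays lowest. Basigin (BSG) read 4404 in sPTK7 cells and 5305 in PTK7 cells, against 5313 in HT1080 cells. Of 17 genes of adherens junctions, 13 were tested. CDH11, the gene of cadherin-11, was lower where AJAP1 was lower, at 186.5 in sPTK7 cells (at least 7.55-fold after correction, 3.17-fold in deposited signal) and 170.0 in PTK7 cells (at least 7.38-fold and 3.48-fold), against 591.2 in HT1080 cells. In the C-terminal fragment lines CDH11 was higher, at 2347 in cPTK7/622-1070 cells and 3588 in cPTK7/726-1070 cells. CDH2 was lower in PTK7 cells (2.42-fold) and also in cPTK7/726-1070 cells (2.14-fold). AP1M2 was lower in sPTK7 cells (2.72-fold) and also in Chz cells (2.27-fold). Of the 13 genes 2 were lower in each of sPTK7 and PTK7 cells, where 2.08% and 3.98% of all genes tested were lower. No gene of the list was higher in either line, where 2.08% and 2.79% of all genes tested were higher.

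**Figure D3:**
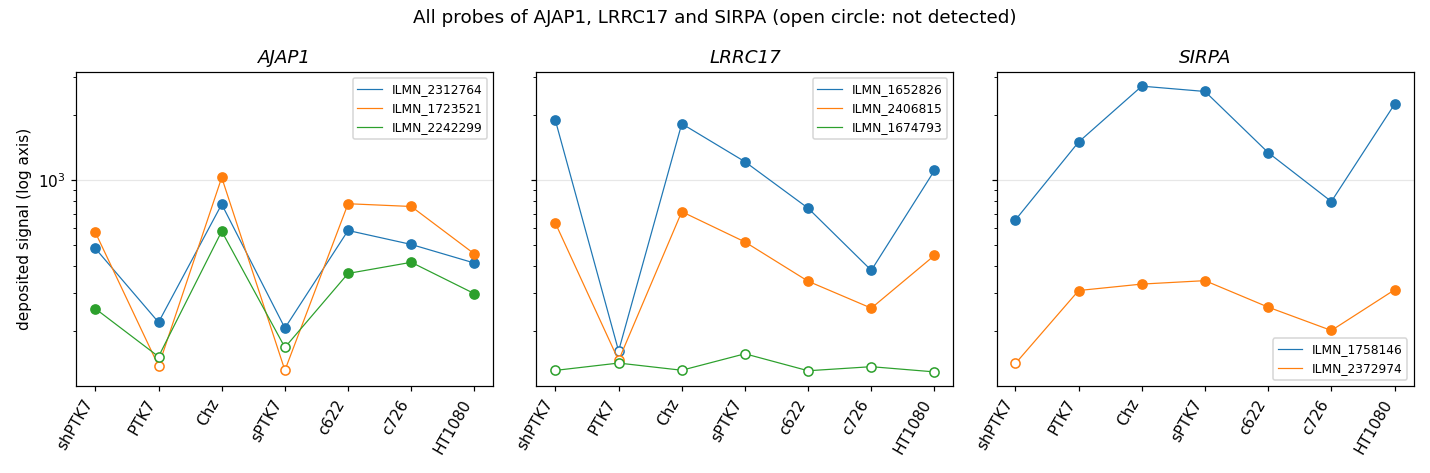
Deposited signal (log axis) of every probe of AJAP1, LRRC17 and SIRPA on the 7 arrays, 1 color per probe and an open circle where the probe was not detected. All 3 AJAP1 probes are lowest in sPTK7 and PTK7 cells, 2 LRRC17 probes are lowest in PTK7 cells, and both SIRPA probes are lowest in shPTK7 cells, while the third LRRC17 probe is at background on all arrays.

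SERINC2 encodes a membrane protein of the serine incorporator family. Its only probe read 167.1 in PTK7 cells (not detected), 520.5 in sPTK7 cells, 774.3 in Chz cells, 897.5 in shPTK7 cells, 1027 in cPTK7/726-1070 cells and 1264 in cPTK7/622-1070 cells, against 1663 in HT1080 cells. HT1080 cells had the highest level of all 7 arrays. The corrected fall was at least 24.8-fold in PTK7 cells, where the deposited signals differed 9.95-fold, with log2 folds of -3.05 without background correction and -4.16 with a detection p under 0.01. It was 3.63-fold in sPTK7 cells, 2.81-fold in Chz cells and 2.14-fold in shPTK7 cells. Relative to the median of the 7 arrays, SERINC2 was no longer lower in sPTK7, Chz or shPTK7 cells, and the call in shPTK7 cells was also lost without background correction and with the authors' normalized table. SERINC1 read 797.9 and SERINC3 2034 in PTK7 cells, against 958.2 and 2056 in HT1080 cells. Of the 3 tested relatives none was called in any of the 4 lines, where 1.76% to 3.98% of all genes tested were lower.

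ATP9A encodes a P4-ATPase, a family of enzymes that move phospholipids between the leaflets of membranes. The representing probe read 152.3 in shPTK7 cells (not detected), 324.5 in cPTK7/726-1070 cells, 399.5 in cPTK7/622-1070 cells, 567.0 in PTK7 cells, 1433 in Chz cells and 1543 in sPTK7 cells, against 1082 in HT1080 cells. The lines called lower were shPTK7 (at least 17.2-fold after correction, 7.11-fold in deposited signal), cPTK7/726-1070 (4.23-fold) and cPTK7/622-1070 (3.83-fold, the 6th largest of 102). PTK7 cells were 1.99-fold lower, short of a call, but passed 2-fold without normalization between arrays. In that setting ATP9A was outside the stated 1 to 3 lines. In shPTK7 cells the log2 fold was -2.48 without background correction and -3.75 with a detection p under 0.01. The other 2 ATP9A probes were detected on no array, so the pattern rests on 1 probe. ATP8B1, another flippase gene, was lower in the same 3 lines, by 2.61-fold in shPTK7 cells (227.5), 2.49-fold in cPTK7/726-1070 cells (213.5) and 2.03-fold in cPTK7/622-1070 cells (255.1), against 353.9 in HT1080 cells. It was the single call among the 7 or 8 listed genes tested in those lines, where 0.85% to 1.76% of all genes tested were lower.

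PIK3CG encodes the catalytic subunit of the phosphoinositide 3-kinase that is activated by G protein-coupled receptors and is known mainly from leukocytes. Its representing probe read 166.5 in PTK7 cells and 184.4 in Chz cells, not detected in either, then 302.7 in cPTK7/726-1070 cells, 421.1 in sPTK7 cells, 428.1 in shPTK7 cells and 506.6 in cPTK7/622-1070 cells, against 483.7 in HT1080 cells. After correction the falls were at least 5.59-fold in PTK7 cells (2.90-fold in deposited signal) and at least 6.03-fold in Chz cells (2.62-fold). In Chz cells the log2 fold was -1.30 without background correction and -2.20 with a detection p under 0.01. The difference between these bounds has no meaning, because both arrays were at background. The annotation assigns this probe to a sequence record that is not a RefSeq transcript. The probe assigned to the RefSeq transcript was not detected in HT1080 cells (192.6, detection p 0.0610) and was detected only in shPTK7 (203.5) and cPTK7/726-1070 cells (198.2). The data for PIK3CG therefore hold for 1 probe whose match to the coding transcript was not tested. Of 8 other subunit and lipid phosphatase genes tested in PTK7 cells and 8 in Chz cells, none was called. Of all genes tested, 3.98% were lower in PTK7 cells and 1.97% in Chz cells. Among the 8 was PIK3CB, which read 383.8 in PTK7 cells and 714.9 in Chz cells, against 497.3 in HT1080 cells.

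EEF1A2 encodes the form of translation elongation factor 1 alpha that in adult tissues is found mainly in neurons, heart and skeletal muscle, whereas EEF1A1 serves nearly all cells. EEF1A2 read 242.6 in sPTK7 cells, 2442 in cPTK7/726-1070 cells, 2894 in cPTK7/622-1070 cells, 3223 in shPTK7 cells, 5880 in Chz cells and 9978 in PTK7 cells, against 4407 in HT1080 cells. It had the widest range of the 10 genes, 6.44 on the log2 scale. sPTK7 cells were 37.4-fold lower, the largest of the 250 lower calls in that line, with a signal that was still detected (detection p 0.00130). PTK7 cells were 2.32-fold higher, rank 214 of 335 higher calls. The lines with the soluble ectodomain and with the full-length protein were thus at opposite ends of the 7 arrays. EEF1A1 read 59730 in sPTK7 cells and 62520 in PTK7 cells, against 65090 in HT1080 cells. None of the 7 tested genes of the elongation complex was called in sPTK7 cells, and their median log2 fold was -0.09. In these cells 2.08% of all genes tested were lower and 2.08% higher. Skeletal muscle markers were not detected on any array, and of 6 neuron markers 2 were detected in sPTK7 cells and none in PTK7 cells, against 1 in HT1080 cells.

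Members that fell together were described by Pearson correlations of normalized log2 signals over the 7 arrays, which share 1 chip and 1 normalization. ATP9A and SIRPA correlated at 0.99, with the same order of all 7 arrays from shPTK7, cPTK7/726-1070, cPTK7/622-1070 and PTK7 up to HT1080, Chz and sPTK7. Both lie on chromosome 20, 49.7 Mb apart. HHIP correlated at 0.98 with TNFRSF21, and SERINC2 at 0.92 with HHIP and 0.86 with TNFRSF21. PTK7 cells were the lowest array for all 3 of these genes. The lowest value was -0.57, between EEF1A2 and CSPG4. The members were chosen for large changes on few arrays, so high values between genes that share a low array follow from the choice.

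Genes outside the group with the most similar profiles were ranked among 3544 genes that were detected somewhere and varied by at least 1 on the log2 scale. For EEF1A2 the first were DMKN, which encodes dermokine (r = 0.98), C16orf92 (r = 0.98) and LRATD2 (r = 0.97). C16orf92 and LRATD2 were called in no line, with log2 folds of -0.90 or less (not detected) and -0.79 in sPTK7 cells. DMKN read 162.6 in sPTK7 cells and 3095 in PTK7 cells, against 989.2 in HT1080 cells, log2 folds of -3.81 or less (not detected) and 1.89, so both lines were called in the directions of EEF1A2. For TNFRSF21 the first were SERPINE2, a protease inhibitor (r = 0.99), TM2D2 and COL6A3, with 2406 for SERPINE2 and 1391 for COL6A3 in PTK7 cells, against 15820 and 10140 in HT1080 cells. TM2D2 was also among the first 3 for HHIP, behind SLC44A2 and ARFGEF3 (each r = 0.98). For ATP9A and SIRPA alike the first was RBCK1, a ubiquitin ligase component (r = 0.98 and 0.97), with 420.0 in shPTK7 cells, against 703.8 in HT1080 cells. ATP9A was next followed by PSMB9 and MAFF and SIRPA by CDS2 and STOML1.

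SERINC2 was followed by NFIB, ENTPD4 and TCTN1 (r = 0.97 to 0.99), with log2 folds between -1.37 and -1.13 in PTK7 cells. LRRC17 was followed by ZNF286A, TMPRSS12 and PTAR1, PIK3CG by DUSP2, SYBU and FUT4, and CSPG4 by B4GALNT4, HABP4 and PHLPP1. SYBU was lower in PTK7 cells (310.3) and Chz cells (394.0), against 731.6 in HT1080 cells, log2 folds of -1.66 and -1.42. AJAP1 was followed by NPAT, HERC3 and TUB. TUB, not detected in either line, read 111.3 in sPTK7 cells and 154.0 in PTK7 cells, against 380.4 in HT1080 cells, with log2 folds of -2.00 or less and -1.97 or less. The number of genes with a correlation above 0.95 ranged between 2 for PIK3CG and 30 for HHIP.

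For each member the nearest gene on either side in the genome with a probe detected on at least 1 array was taken, 20 neighbors in all, at distances from 10.6 kb (CIMAP1C, beside CSPG4) to 1085 kb (GUSBP5, beside HHIP). In the lines where the member was called lower, 36 values of neighbors could be compared with HT1080 cells and 0 were called lower. In 10 of the 36 the neighbor was too dim in HT1080 cells for a 2-fold fall to be seen, which leaves 0 of 26. Both neighbors of SIRPA, SIRPD (195.4 in HT1080 cells) and PDYN (216.7), were among the dim ones, so no fall beside SIRPA could be seen. With 0.85% to 3.98% of all genes lower per line, a count of 0 is near the background and says nothing particular about these loci. PPDPF, 21.7 kb from EEF1A2, had a log2 fold of 0.38 in sPTK7 cells, and ZCCHC17, 44.8 kb from SERINC2, of 0.14 in PTK7 cells. SNX33, beside CSPG4, had log2 folds of -0.51 in shPTK7 and 0.45 in PTK7 cells. The lowest neighbor value was -0.87, for CD2AP beside TNFRSF21 in PTK7 cells. LRRC17 and PIK3CG, 3.95 Mb apart on chromosome 7, were both not detected in PTK7 cells, while in cPTK7/726-1070 cells LRRC17 alone was called and in Chz cells PIK3CG alone.

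**Figure D4:**
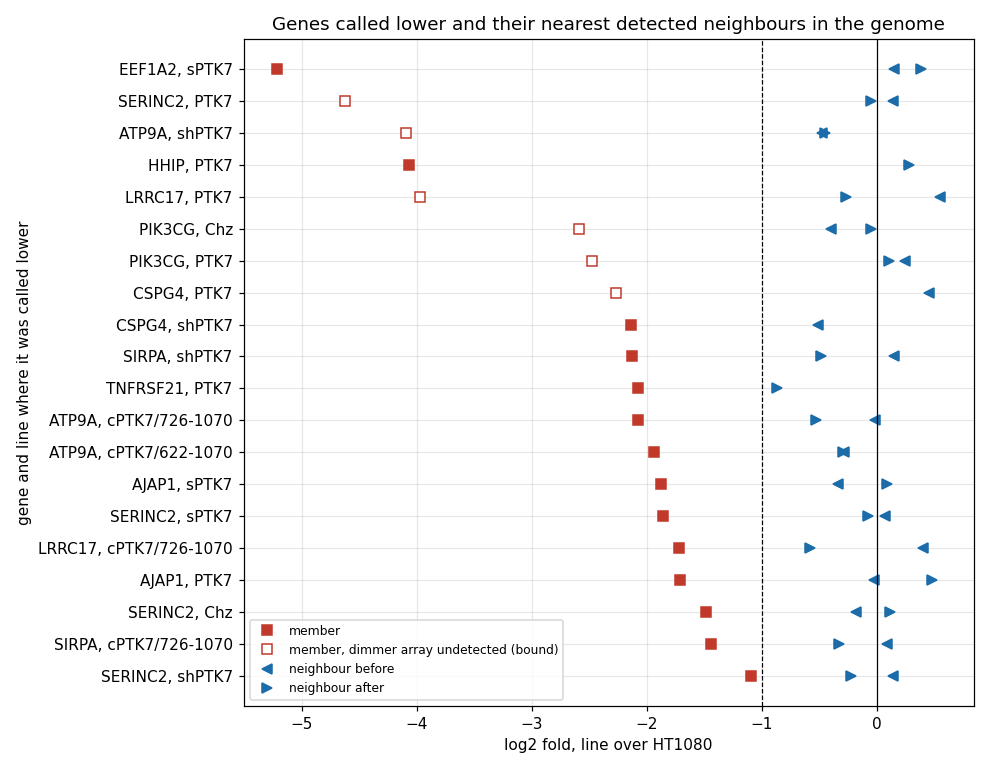
log2 fold over HT1080 cells of each member in the lines where it was called lower (squares, open where the fold is a bound) and of its nearest detected neighbors in the genome (triangles), with the 2-fold limit as a dashed line. The members lie between -5.22 and -1.10 and the 36 neighbor values all lie above the limit, the lowest being -0.87. In 10 of the 36 the neighbor was too dim in HT1080 cells to reach the limit, among them both neighbors of SIRPA.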

How the data were processed

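RNA of 7 HT1080 cultures was hybridized to 1 Illumina HumanHT-12 v4 BeadChip array each. The deposited table used here holds, per probe, the signal intensity that the authors extracted with the BeadArray Reader software, before normalization, with a detection p-value. The authors' normalized intensity values, made with GeneSpring GX, were also deposited and served as an alternative. Their median was 176.2 on every array and their rank order that of the unnormalized values (Spearman 1.0). No value column was left without a sample (0). Genome build and probe positions are not given in the sources used here.

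Intensities were background-corrected from the detection p-values (limma 3.58.1 nec, offset 16, R 4.3.3), quantile-normalized over 7 arrays and put on the log2 scale. Signals below the lowest detected one of an array were raised to it. Of 47230 probes, 30112 had 1 gene symbol, 8 several and 17110 none in the platform annotation. Symbols were updated through RefSeq (GRCh38.p14). Where a gene had several probes, the brightest on average stood for it. Genes detected in the line or in HT1080 cells were tested, 11994 to 12250 per line. Python 3.11.15, pandas 2.3.3 and matplotlib 3.10.9 were used, and the scripts were tested on simulated data.

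With 1 array per line, Welch's test named in the study's methods was not run and no p-value or error is given. The text names all members and probes, the 3 genes most correlated with each, the nearest detected gene on either side, PTK7, list genes called where their member was lower (at most 4 per list) and family members. Values of list genes in lines where their member was not lower, and the genes under the other observations, were singled out after their values were seen. Members and lists were chosen with earlier results of these data known. The alternatives were other background, scaling, detection, floor, offset, probe, reference and threshold choices.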

Additional observations from a re-analysis of the deposited data

Results flagged for a closer look

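Some probes were called in opposite directions in different lines, each over the same HT1080 array, and the difference between the lines was not tested. EEF1A2 had a log2 fold of -5.22 in sPTK7 cells and 1.21 in PTK7 cells. AJAP1 probe ILMN_1723521 had log2 folds of at most -2.39 in sPTK7 and at most -2.35 in PTK7 cells, and of 1.28 in Chz and 1.22 in cPTK7/726-1070 cells. AJAP1 probe ILMN_2242299 had log2 folds of at most -1.39 in sPTK7 and at most -1.36 in PTK7 cells, and of 1.27 in Chz and 1.08 in cPTK7/726-1070 cells. The AJAP1 probe that represents the gene had the same directions, with 0.99 in Chz and 0.68 in cPTK7/726-1070 cells, both short of a call.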

How the results depend on the processing

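The 20 lower calls became 19 without background correction and with the authors' normalized table (SERINC2 in shPTK7 cells lost), 21 with scaling to the 75th percentile, 24 without normalization between arrays, 15 with the median of the 7 arrays as reference and 12 at a 4-fold threshold. They stayed at 20 in number with a detection p under 0.01, no floor, an offset of 50 or any probe. With no floor or any probe, lower calls could be added but none could be lost. With the median as reference 1 member was lower in Chz cells (2 in the values reported) and 0 in cPTK7/622-1070 cells (1), and SIRPA was no longer lower in cPTK7/726-1070 cells. At 4-fold 1 was lower in Chz, 1 in sPTK7 (3), 0 in cPTK7/622-1070 and 1 in cPTK7/726-1070 cells (3). Without normalization between arrays 5 were lower in cPTK7/726-1070 cells, where HHIP and PIK3CG passed 2-fold. In that setting 8 were lower in PTK7 cells, where ATP9A passed it, and HHIP also passed it in sPTK7 cells. Folds were recomputed only for each member in its lowest line, EEF1A2 in PTK7 cells and AJAP1 in Chz cells. The median reference and the 4-fold threshold were left out there. Of these 96 folds, 93 kept their direction and side of the limit. The other 3, all of AJAP1 in Chz cells, passed it (1.22 without normalization, 1.20 with an offset of 50, 1.28 with any probe). None of these folds changed direction. Most of them are falls for which the genes were selected, and with no floor or any probe a fall could not lose its call. The count is therefore no test of the calls. The size of a fall moved more, between -5.34 and -4.09 for EEF1A2 in sPTK7 cells, -5.32 and -3.05 for SERINC2 and -4.75 and -2.45 for LRRC17 in PTK7 cells, -2.83 and -1.30 for PIK3CG in Chz cells, -4.86 and -2.48 for ATP9A in shPTK7 cells and -2.61 and -1.12 for CSPG4 in PTK7 cells. For AJAP1 in sPTK7 cells the fold moved between -2.39 and -1.19. No paired analysis was possible because each line has 1 array, and leaving out an array leaves no line to compare. Background limits folds of dim genes, and the bounds of undetected genes move with the detection limit.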

Other observations

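ZFP64, the nearest detected gene after ATP9A, was itself lower in sPTK7 cells, with a log2 fold of -1.67, where ATP9A read 1543 against 1082 in HT1080 cells. KCNG1 on the other side of ATP9A had a log2 fold of -0.92 in PTK7 cells, close to the -0.99 of ATP9A there, and of -0.48 in shPTK7 cells, where ATP9A was not detected.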
